A study of Mus musculus with 29 samples.

Results

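Distal sites at which 5 to 9 different tagged transcription factors gave a peak were described here for their occupants, their sequence and the genes around them. Peaks of duplicate lists were merged for each construct, and touching peaks of all 24 constructs were joined into 168506 sites. Of these sites, 7879 were chosen by their peaks, because they held peaks of 5 to 9 constructs and had their midpoint more than 1 kb from every protein-coding transcript start. The number and kind of constructs at a site are therefore what the sites were selected on and are given as a description. Sequence was not used in the selection, and gene annotation only through the distance of 1 kb from start sites. The agreement of duplicate lists was not used either, but the peaks of both lists were among those counted.

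The peaks came from ChIP-seq with an anti-HA antibody in NIH-3T3 cells, an established line of mouse embryonic fibroblasts, in which a tagged factor was expressed overnight from a lentiviral transgene with 500 ng/ml doxycycline, in cells that also carry the rtTA3G activator. The cells were fixed with 1% formaldehyde. There are 28 peak lists for 24 constructs, namely 21 wild-type factors, the FOXA1 mutants FOXA1_RR-HA and FOXA1_SW-HA, and a line that expresses SOX2 joined to YPet beside OCT4-HA (SOX2-YPET OCT4-HA). Duplicate lists exist for SOX2-HA, BHLHB8-HA, FOXA1-HA and OCT4-HA, and 20 constructs have a single list. Each construct is a separate line, so a difference between constructs and a difference between lines cannot be told apart. The lists held between 52 and 61991 peaks (median 5074), with no score and no read number, so the depth behind each list is unknown.

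The co-expression list stood apart from the others. Of its 155 sites, 135 (87.1%) lay in BHLHB8-HA replicate 2 and 58 (37.4%) in BHLHB8-HA replicate 1, whereas over all 7879 sites replicate 2 had 58.7% and replicate 1 had 90.7%. Another list, SOX2-HA replicate 1, held 42 of them (27.1%) and 90.3% of all the sites. BHLHB8-HA replicate 2 was not the only list over its share. RHOX11-HA held 62.6% of the 155 and 7.04% of all the sites, SIX6-HA 66.5% and 35.8%. For HLF-HA the values were 43.2% and 13.5%, and for FOXA1-HA replicate 2 they were 25.8% and 6.09%. With the co-expression list and BHLHB8-HA replicate 2 both left out, 7735 sites met the same rule, with AP-1 at 37.0% of them, and none of the 9 tests between site classes changed its call.

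Distal regulatory elements, or enhancers, are stretches of open chromatin to which several transcription factors bind together, usually far from the promoter they act on. In fibroblasts many of them carry the sequence TGACTCA, the binding site of AP-1, a dimer of FOS and JUN family proteins that binds with other factors and with chromatin remodellers. RUNX and TEAD proteins are further factors of mesenchymal enhancers. A transcription factor may bind such an element through its own recognition sequence, or be found there without one.

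Examples of the sites are shown first, as the plus strand of GRCm38 with 50 bp to either side of the deepest overlap of the peaks. The AP-1 sequence, TGACTCA on either strand, is in capitals. The first 4 are the sites of 9 constructs at which AP-1 lay closest to the deepest overlap. They lie in an intron 25.802 kb from the nearest start site, of Camk2d (chr3:126831581-126831681), in an intron 87.705 kb from a start of Nrg1 (chr8:31829293-31829393), in an intron of a noncoding gene with Daam1 as the nearest protein-coding gene (chr12:71703687-71703787), and between genes with Noct as the nearest (chr3:51080917-51081017).
Camk2d: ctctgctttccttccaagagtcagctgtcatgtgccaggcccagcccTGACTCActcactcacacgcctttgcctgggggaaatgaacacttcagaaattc
Nrg1: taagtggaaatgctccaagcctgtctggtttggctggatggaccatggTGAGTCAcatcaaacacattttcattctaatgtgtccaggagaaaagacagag
Daam1: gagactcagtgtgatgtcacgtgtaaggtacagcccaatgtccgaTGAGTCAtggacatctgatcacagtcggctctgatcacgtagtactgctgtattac
Noct: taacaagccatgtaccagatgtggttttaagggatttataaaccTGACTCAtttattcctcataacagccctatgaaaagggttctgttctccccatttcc
In all 4 the AP-1 sequence is within a few bases of the centre, while the flanks differ. The Camk2d stretch also holds the E-box CAGCTG and the Noct stretch the RUNX sequence TGTGGTT, read on either strand. The constructs with a peak at the Noct site were BHLHB8-HA, CDX2-HA, DLX1-HA, DLX6-HA, EBF1-HA, FOXA1-HA, MAX-HA, SOX15-HA and SOX2-HA, in 11 of the 28 lists.

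The next 3 are the sites with the most constructs near the 3 genes that had the most such sites, Rbpj (chr5:53430240-53430340, between genes), Lhfpl2 (chr13:94154594-94154694, in an intron) and Asap1 (chr15:64477350-64477450, between genes).
Rbpj: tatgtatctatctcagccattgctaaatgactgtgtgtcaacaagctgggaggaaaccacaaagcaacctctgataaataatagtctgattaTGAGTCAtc
Lhfpl2: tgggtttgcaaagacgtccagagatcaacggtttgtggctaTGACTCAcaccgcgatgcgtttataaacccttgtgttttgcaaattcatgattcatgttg
Asap1: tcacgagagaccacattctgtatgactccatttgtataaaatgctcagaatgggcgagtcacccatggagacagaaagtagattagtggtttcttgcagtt
AP-1 lies off centre in the Rbpj stretch and outside the printed stretch at Asap1. The Rbpj stretch also holds RUNX, SOX and C/EBP sequences. The last pair shows sites of 9 constructs without AP-1 in the central 200 bp and with the lowest GC content, both between genes, nearest to Lclat1 (chr17:73075643-73075743) and Ofcc1 (chr13:39898562-39898662).
Lclat1: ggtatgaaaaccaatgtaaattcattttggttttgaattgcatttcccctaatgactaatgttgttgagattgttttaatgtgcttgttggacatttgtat
Ofcc1: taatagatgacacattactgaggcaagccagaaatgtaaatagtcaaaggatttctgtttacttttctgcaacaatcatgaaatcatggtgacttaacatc
The GC content of the 200 bp windows about these was 29.5% and 31.5%. The Ofcc1 stretch holds a forkhead and a C/EBP sequence, and the Lclat1 stretch holds none of the 24 sequences searched.

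The 7879 sites were 2969 sites of 5 constructs, 2129 of 6, 1379 of 7, 876 of 8 and 526 of 9. Just outside the limits there were 4201 distal sites of 4 constructs and 286 of 10, and 835 further sites of 5 to 9 constructs lay within 1 kb of a start site. For comparison, 142312 distal sites had 1 to 4 constructs and 700 had 10 or more. The sites of 5 to 9 constructs were 189 to 3065 bp wide (median 762 bp), against a median of 297 bp for distal sites of 1 to 4 constructs and 1004 bp for those of 10 or more. At 5788 of the 7879 sites (73.5%) all constructs overlapped over at least 1 base, and at 7197 (91.3%) at least 5 constructs did, so that the sites were mostly stacked peaks and not chains of neighbouring ones.

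Most sites were held by the same few constructs. BHLHB8-HA, a basic helix-loop-helix factor of secretory cells, had a peak at 7349 (93.3%). DLX6-HA, a homeodomain factor, had one at 7253 (92.1%), SOX2-HA, an HMG-box factor of stem cells, at 7149 (90.7%), and DLX1-HA, the second DLX homeodomain factor, at 6358 (80.7%). All 4 of these constructs were present at 5181 sites (65.8%), 3 of them at 2153 (27.3%), and none at 17.

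**Figure D1:**
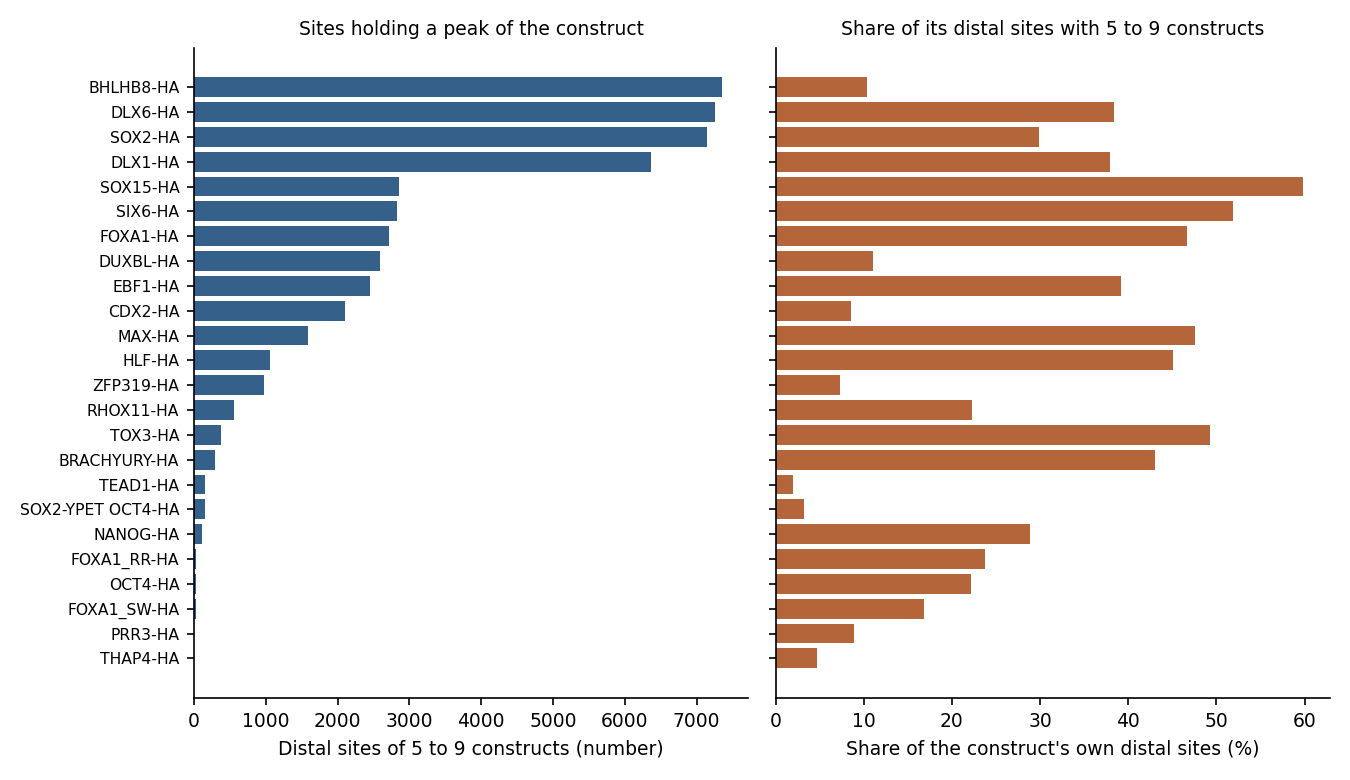
Number of distal sites of 5 to 9 constructs that hold a peak of each construct (left) and the share these make of all distal sites of that construct (right, in percent). BHLHB8-HA, DLX6-HA, SOX2-HA and DLX1-HA stand at 6358 to 7349 sites and the next construct at 2849, whereas SOX15-HA has the highest share of its own sites, 59.9%.

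A middle group followed. SOX15-HA, like SOX2 an HMG-box factor, was at 2849 sites, SIX6-HA, an eye homeodomain factor, at 2824, and FOXA1-HA, a forkhead pioneer factor of liver and other endoderm, at 2722. DUXBL-HA, a double homeodomain factor, was at 2592, EBF1-HA, a B-cell and adipocyte factor, at 2457, CDX2-HA, the intestinal caudal homeodomain factor, at 2103, and MAX-HA, the partner of MYC, at 1590. HLF-HA, a PAR bZIP factor, was at 1064 sites and ZFP319-HA, a zinc-finger protein, at 970. RHOX11-HA was at 555 sites, TOX3-HA at 382, BRACHYURY-HA at 294, TEAD1-HA at 157, SOX2-YPET OCT4-HA at 155 and NANOG-HA at 106. The FOXA1 mutants were at 33 (RR) and 22 (SW) sites, OCT4-HA at 23, PRR3-HA at 5 and THAP4-HA at 2.

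How much of a construct's own distal binding fell into these sites was a different matter. SOX15-HA had 59.9% of its 4760 distal sites among them, SIX6-HA 51.8% of 5448, TOX3-HA 49.2% of 776, MAX-HA 47.6% of 3340 and FOXA1-HA 46.6% of 5836. BHLHB8-HA, with the most distal sites (71089), had 10.3%. The share was 8.54% for CDX2-HA, 7.34% for ZFP319-HA, 3.17% for the co-expression list and 1.92% for TEAD1-HA. The lists of CDX2-HA, ZFP319-HA and TEAD1-HA thus lay for the most part at sites of 1 to 4 constructs (22086, 12026 and 7993 sites).

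There were 1816 different combinations of constructs, of which 1081 occurred once. The most frequent were the 4 leading constructs with 1 more, namely CDX2-HA (276 sites), DUXBL-HA (251), SOX15-HA (205), EBF1-HA (180), SIX6-HA (170) and FOXA1-HA (142). Next came the 4 with CDX2-HA and SOX15-HA (100), with DUXBL-HA and SIX6-HA (94), with CDX2-HA and DUXBL-HA (90) and with EBF1-HA and SIX6-HA (87). These 10 combinations accounted for 1595 sites (20.2%). Of the sites with SOX15-HA, 97.3% also had SOX2-HA, whereas 38.8% of the sites with SOX2-HA had SOX15-HA. DLX1-HA sites had DLX6-HA in 93.8% and DLX6-HA sites had DLX1-HA in 82.2%.

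Some less frequent constructs met more often than the product of their shares. RHOX11-HA and the co-expression list were together at 97 sites, 8.88 times the product of their shares, and TEAD1-HA and TOX3-HA at 33 sites, 4.34 times. EBF1-HA had a peak at 279 of the 382 sites of TOX3-HA (73.0%). FOXA1-HA had one at 1213 of the 1590 sites of MAX-HA (76.3%), 2.21 times the product. The co-expression list met DLX6-HA at 35 sites, 0.245 times the product, and CDX2-HA met TOX3-HA at 29 sites, 0.284 times. These ratios describe sites that were all selected for their number of constructs, which ties the shares together.

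Duplicate lists met more often at these sites than at less shared ones, in the 3 constructs with enough peaks. This is a description, because the peaks of both lists were among those that defined the sites. The sites were also wider than those of 1 to 4 constructs (medians 762 bp and 297 bp). The part of width in the agreement was not tested. For SOX2-HA, 34.6% of 7149 sites had a peak in both lists (95% exact binomial interval 33.5% to 35.7%), against 13.4% of 16094 distal sites of 1 to 4 constructs (12.9% to 13.9%) and 68.8% of 677 sites of 10 or more (65.2% to 72.3%). For BHLHB8-HA the shares were 60.1% of 7349, 20.9% of 63052 and 70.9% of 688. For FOXA1-HA they were 15.7% of 2722, 6.85% of 2524 and 34.2% of 590. OCT4-HA had 1 of 23 sites in both lists.

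Within the 5 to 9 constructs the agreement still rose with the number of constructs. In SOX2-HA it was 25.3% at sites of 5 constructs and 53.6% at sites of 9, in BHLHB8-HA 54.7% and 69.1%, and in FOXA1-HA 11.4% and 23.7%. At these sites the shorter list of SOX2-HA and that of FOXA1-HA were nearly contained in the longer ones. Of the 2528 peaks of SOX2-HA replicate 2 at these sites, 2493 (98.6%) overlapped replicate 1, and of the 484 peaks of FOXA1-HA replicate 2, 428 (88.4%) did, whereas 427 of 2696 peaks of FOXA1-HA replicate 1 (15.8%) were in replicate 2. For BHLHB8-HA, whose replicate 1 had fewer peaks in all, 4564 of its 7520 peaks at these sites (60.7%) were in replicate 2 and 4527 of 4808 peaks of replicate 2 (94.2%) were in replicate 1. At distal sites of 1 to 4 constructs the share of replicate 2 peaks in replicate 1 was 86.9% for SOX2-HA, 56.5% for FOXA1-HA and 28.5% for BHLHB8-HA. For 20 of the 24 constructs no second list exists.

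AP-1 was the sequence with the largest excess over the surroundings. A window of 200 bp about the deepest overlap held TGACTCA, on either strand, at 2910 of 7879 sites (36.9%, interval 35.9% to 38.0%). Neighbouring windows, placed 5 kb downstream and free of peaks in all lists, had it in 213 of 7081 (3.01%, 2.62% to 3.43%), a ratio of 12.3, and windows spaced every 10 kb over the distal genome in 3.12%. Of the sites, 2533 had 1 copy, 355 had 2 and 22 had 3 or more. The next highest ratio among the 24 sequences searched was 2.87, for RUNX. The intervals cover counting error over sites only.

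**Figure D2:**
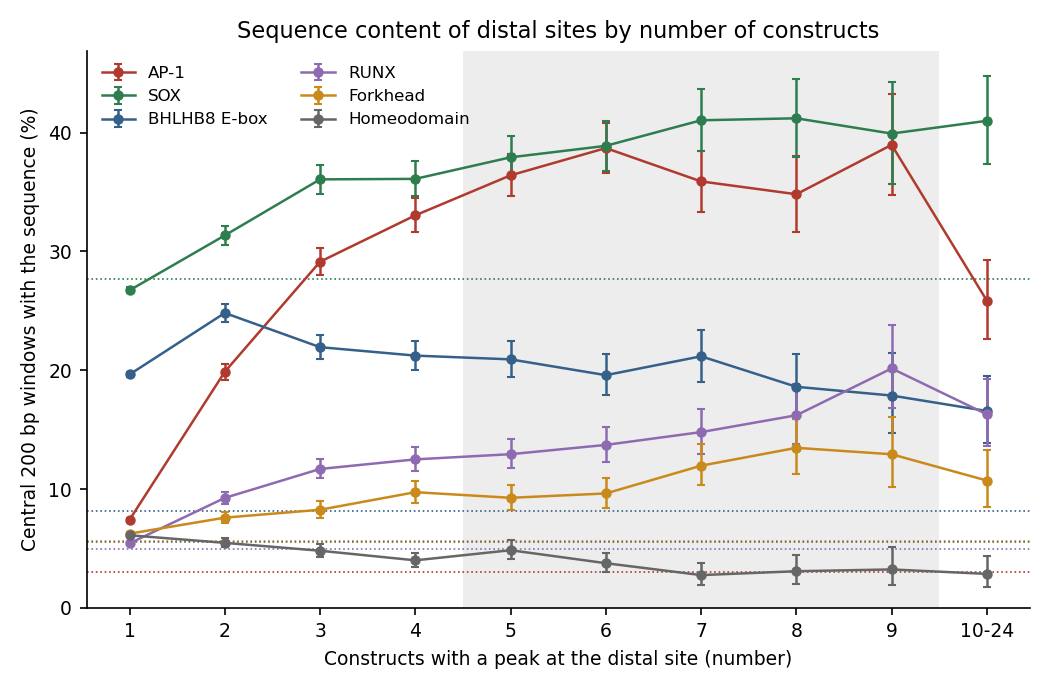
Share of central 200 bp windows (percent) that hold 6 sequences, for distal sites by number of constructs, with 95% exact binomial intervals and, dotted, the share in neighbouring windows without peaks; the shaded range marks 5 to 9 constructs. AP-1 climbs from 7.41% at 1 construct to 36.4% at 5, stays between 34.8% and 39.0% up to 9 and is 25.9% at 10 or more.

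The share of AP-1 rose over the less shared sites and was level over the range of 5 to 9. It was 7.41% at distal sites of 1 construct, 19.9% at 2, 29.1% at 3 and 33.0% at 4. It was then 36.4% at 5 constructs, 38.7% at 6, 35.9% at 7, 34.8% at 8 and 39.0% at 9 (34.8% to 43.3%), intervals that overlap one another. At 10 or more constructs it was 25.9% (22.6% to 29.3%). Site width rose over the same classes, from a median of 279 bp at 1 construct to 932 bp at 9, and its part in the AP-1 share was not tested.

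AP-1 was also centred. Within 20 bp of the deepest overlap there were 50.1 AP-1 sequences per 1000 sites and 20 bp of sequence, against 4.58 at 400 to 500 bp from it. At distal sites of 1 to 4 constructs the figures were 12.3 and 3.81.

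The same comparison was made within each construct, at the middle of its own peaks, with a paired permutation test over constructs. AP-1 was in 26.4% of windows at sites of 5 to 9 constructs and 15.3% at distal sites of 1 to 4, as means over 18 constructs, a difference of 11.1 percentage points (SD 7.12). It was higher in 18 of 18 constructs (permutation p = 1e-05, the smallest the draws can give, adjusted p = 4.5e-05 over 9 tests). The largest difference was in DUXBL-HA, from 8.39% to 40.6%, and the smallest in TOX3-HA, from 13.4% to 16.0%. TEAD1-HA went from 1.70% to 9.55% and the co-expression list from 3.49% to 6.45%, the lowest levels of the 18.

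Constructs share sites, so that they are not independent and the p-value measures agreement among them. With each site counted for a single construct, 11 constructs remained with a difference of 12.2 percentage points (adjusted permutation p = 0.00477). Without the co-expression list and BHLHB8-HA replicate 2 it was 11.5 points over 17 constructs. The size depended on the window and the peaks kept, with 6.12 points in windows of 100 bp, 6.42 with peaks of at least 300 bp and 17.99 over whole peaks, all past the threshold.

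Sites of 5 to 9 constructs within 1 kb of a start site had less AP-1 and more GC. AP-1 was in 27.5% of the windows at distal sites and 11.6% at these promoter sites, higher at distal sites in 16 of 16 constructs (15.9 points, adjusted permutation p = 4.5e-05, and 9.18 points with distal set at over 5 kb). GC content was 47.6% and 55.6%, lower at distal sites in 16 of 16 (adjusted permutation p = 4.5e-05). Against distal sites of 10 or more constructs, AP-1 was in 23.6% and 16.8% of windows and higher in 21 of 22 constructs, all but NANOG-HA (adjusted permutation p = 4.5e-05). This last difference turned with each site counted once, to -5.81 points over 7 constructs (adjusted exact permutation p = 0.234). GC content differed by -0.34 points from sites of 10 or more (SD 2.18, 22 constructs, adjusted permutation p = 0.542).

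A construct's own sequence was less frequent at these sites than at its less shared ones. As means over 15 constructs with a known consensus it was in 17.8% of windows at sites of 5 to 9 constructs and 25.1% at sites of 1 to 4, lower in 12 of 15, with a difference of -7.30 points (SD 8.62, permutation p = 0.00425, adjusted p = 0.00637). CDX2-HA fell from 53.2% to 28.6%, BHLHB8-HA from 48.0% to 29.0%, EBF1-HA from 40.3% to 21.8%, FOXA1-HA from 44.3% to 31.3% and SOX2-HA from 58.0% to 46.2%. SOX15-HA kept the highest level, 60.7% against 65.8%. It was higher at the shared sites in TEAD1-HA (10.2% against 5.23%), the co-expression list (3.87% against 1.21%) and BRACHYURY-HA (1.36% against 0%, in 294 and 88 windows). Neighbouring windows held CATTCC of TEAD in 10.8%, the octamer of OCT4 in 2.03% and the T-box sequence of BRACHYURY in 0.904%. Those windows were placed from the deepest overlap, and the construct windows on the construct's own peaks. The values at the shared sites rest on 16 of 157, 6 of 155 and 4 of 294 windows. About the deepest overlap the share was 15.9% for TEAD1-HA (10.6% to 22.6%) and 5.16% for the co-expression list (2.25% to 9.92%). For BRACHYURY-HA it was 0.680% (0.0825% to 2.44%). The order against neighbouring windows thus depended on the window for TEAD1-HA and BRACHYURY-HA.

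The call did not hold under 2 alternatives. Over whole peaks the difference was -3.94 points (adjusted permutation p = 0.117), and with each site counted once it was -5.26 points over 8 constructs (adjusted exact permutation p = 0.0563).

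**Figure D3:**
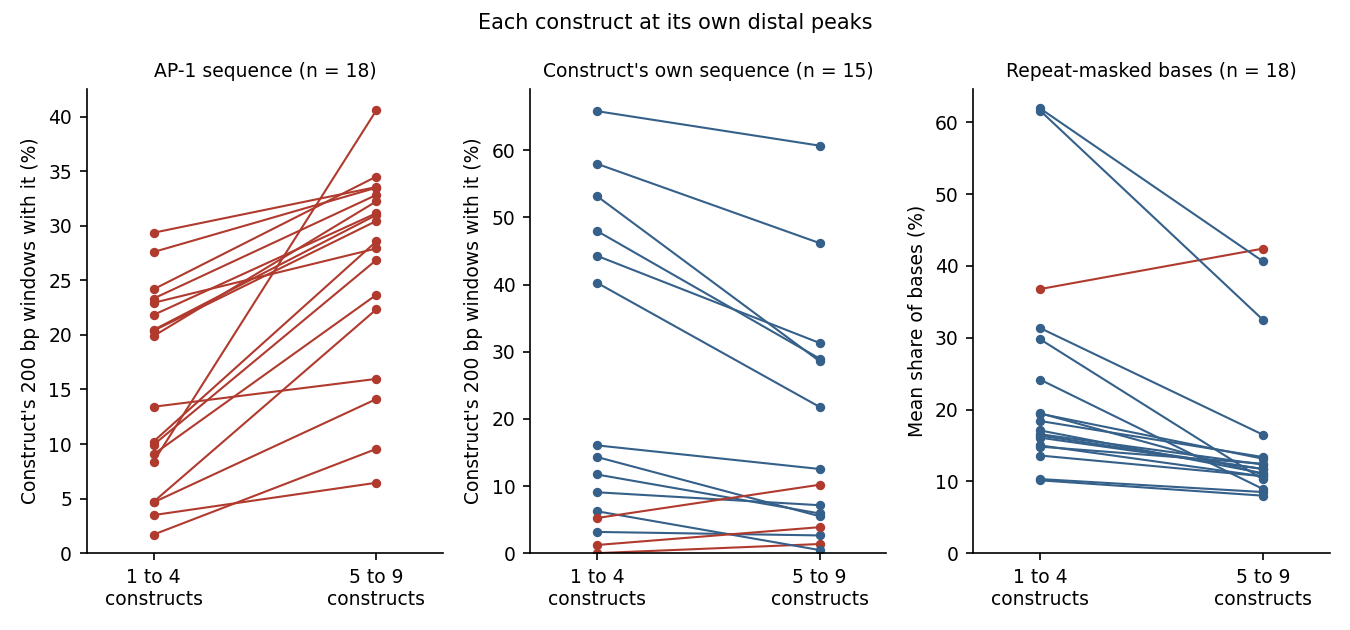
Each line is 1 construct, from its windows at distal sites of 1 to 4 constructs to those at sites of 5 to 9, for the share of 200 bp windows with AP-1 and with the construct's own sequence and for the mean share of repeat-masked bases (all in percent); red lines rise and blue lines fall. AP-1 rises in 18 of 18, the own sequence falls in 12 of 15 and repeats fall in 17 of 18.

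Repeat-masked bases made up 15.9% of windows at sites of 5 to 9 constructs and 24.1% at sites of 1 to 4, lower in 17 of 18 constructs (difference -8.16 points, SD 8.54, adjusted permutation p = 0.000108). ZFP319-HA went from 61.9% to 40.6%, TEAD1-HA from 61.6% to 32.5% and DUXBL-HA from 29.8% to 10.3%. The co-expression list was the exception, with 36.8% and 42.4%. GC content was 47.7% and 46.3%, higher in 11 of 18 constructs (adjusted permutation p = 0.0931), and without BHLHB8-HA replicate 1 this difference passed the threshold (1.69 points, adjusted permutation p = 0.0332). The distance to the nearest start site differed by -0.02 on the log10 scale (SD 0.17, adjusted permutation p = 0.547).

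Within the sites of 5 to 9 constructs, a construct's own sequence was for most constructs more frequent where that construct had a peak. The forkhead sequence (TGTTTAC or TATTTAC) was in 24.5% of windows at the 2722 sites with FOXA1-HA (interval 22.9% to 26.1%) and in 3.20% at the 5157 sites without it (2.74% to 3.72%). The CDX sequence was in 19.3% at sites with CDX2-HA and 4.74% without, and the EBF sequence TCCCNNGGG in 13.1% with EBF1-HA and 1.11% without. The SOX sequence (ACAATG or ACAAAG) was in 41.8% with SOX2-HA and 14.0% without, and in 54.3% with SOX15-HA and 30.7% without.

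The E-boxes of BHLHB8 (CAGCTG or CATATG) were in 25.5% of windows with BHLHB8-HA and 9.06% without it. The D-box of HLF was in 5.92% with HLF-HA and 0.792% without, and TGATAC in 8.99% with SIX6-HA and 3.74% without. For the DLX constructs the homeodomain sequence TAATTA was low throughout, 4.00% with DLX6-HA and 2.56% without, with overlapping intervals, and 4.29% with DLX1-HA and 2.17% without. MAX-HA and TEAD1-HA had no such difference beyond their intervals (2.96% and 3.23% for CACGTG, 15.9% and 18.4% for CATTCC). Neighbouring windows held the forkhead sequence in 5.59%, CDX in 8.63%, EBF in 1.99%, SOX in 27.7%, TGATAC in 6.30% and TAATTA in 5.55%. Sites without FOXA1-HA, CDX2-HA, EBF1-HA, SOX2-HA or SIX6-HA were under these levels, and so were the DLX values with or without a peak. Sites without SOX15-HA, HLF-HA, MAX-HA or TEAD1-HA were above theirs (27.7%, 0.777%, 2.57% and 10.8%). These are descriptions over sites, with the sites as the only units.

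**Figure D4:**
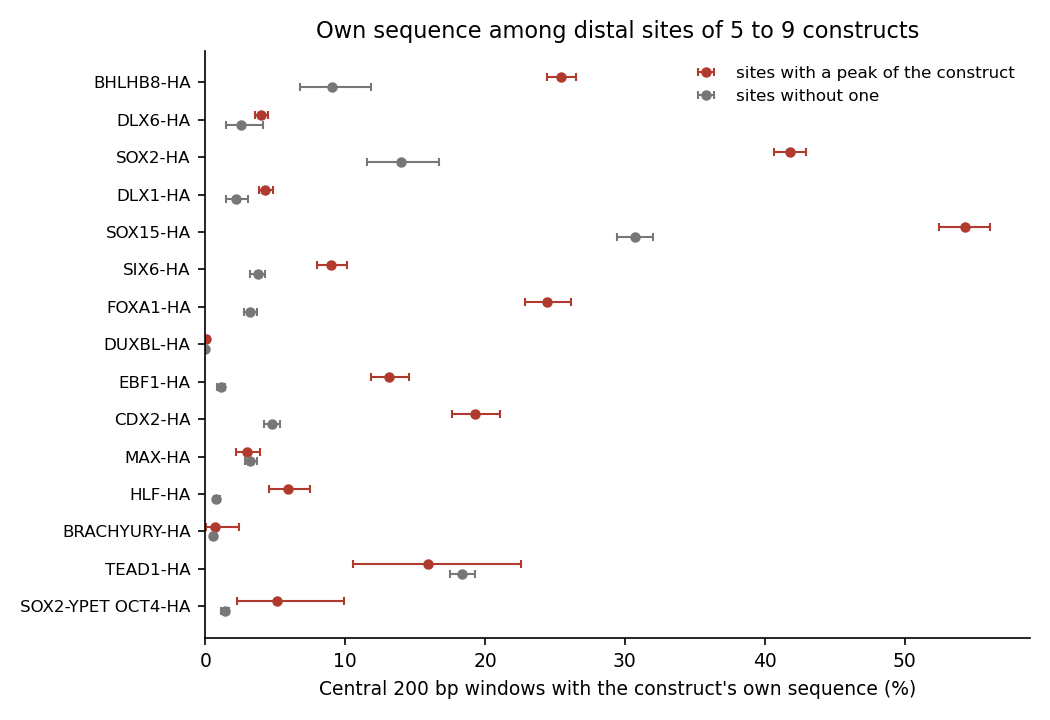
Share of central 200 bp windows (percent, with 95% exact binomial intervals) that hold a construct's own sequence, at distal sites of 5 to 9 constructs with a peak of that construct (red) and without one (grey). The pairs lie apart for FOXA1-HA (24.5% and 3.20%), SOX2-HA (41.8% and 14.0%) and CDX2-HA (19.3% and 4.74%), and overlap for MAX-HA and TEAD1-HA.

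Counting the sequences of the constructs present together, 1875 sites (23.8%) held AP-1 and the own sequence of at least 1 construct with a peak there, 1035 (13.1%) AP-1 alone, 3236 (41.1%) an own sequence alone and 1733 (22.0%) neither. The neighbouring windows, read for the same constructs, held 1.17%, 1.84%, 42.5% and 54.5%. With or without AP-1, an own sequence was in 64.9% of the sites and 43.6% of the neighbouring windows, and among windows without AP-1 in 65.1% and 43.8%.

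AP-1 varied with the construct present. It was in 45.2% of sites with DUXBL-HA (43.3% to 47.2%) and 32.9% without it, and in 39.8% with DLX1-HA and 24.8% without. The combination of the 4 leading constructs with CDX2-HA and DUXBL-HA had AP-1 at 61.1% of its 90 sites. It was in 33.8% with FOXA1-HA and 38.6% without, in 25.6% with RHOX11-HA, 20.4% with TOX3-HA, 11.3% with NANOG-HA and 9.68% with the co-expression list (5.52% to 15.5%). At the 22 sites with FOXA1_SW-HA, no window about the deepest overlap had it (upper bound 15.4%), and 1 of the 22 windows about the construct's own peaks did (4.55%).

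Base composition went with the construct as well. The mean GC content was 56.1% at sites with TOX3-HA, 54.0% with TEAD1-HA and 50.6% with EBF1-HA, and 42.9% with CDX2-HA. Repeats made up 39.7% of windows at sites with the co-expression list and 10.2% at sites without it. The part of base composition in the AP-1 shares of these constructs was not tested.

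RUNX had the second highest ratio to the neighbouring windows. TGTGGTT was in 14.3% of windows (13.6% to 15.1%) and 4.99% of neighbouring ones, although no construct of the series is a RUNX factor. Its share went from 5.43% at distal sites of 1 construct to 12.9% at 5 and 20.2% at 9 (interval 16.8% to 23.8%). It was 16.3% at 10 or more constructs (13.6% to 19.2%). The E-box CAGCTG was in 20.1% against 8.19%, EBF in 4.86% against 1.99%, the forkhead sequence in 10.5% against 5.59%, the NFI sequence TTGGCA in 17.9% against 10.1%, CATTCC of TEAD in 18.3% against 10.8% and SOX in 39.2% against 27.7%.

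Homeodomain sequences were not in excess. TAATTA was in 3.88% of windows and 5.55% of neighbouring ones, although DLX1-HA and DLX6-HA were among the 4 most frequent constructs, TGATAC, the sequence used for SIX6, in 5.62% and 6.30%, and the CDX sequence in 8.63% of each. The octamer was in 1.48% and 2.03%. Windows with AP-1 held RUNX in 12.4% and those without it in 15.4%, and TEAD in 16.5% and 19.4%.

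Without a choice of motifs the 6-letter words gave the same picture. Of 2080 words, strands combined, the largest excess over the neighbouring windows was that of GAGTCA (44.5% against 10.2%) and GACTCA (42.3% against 8.95%), the overlapping parts of the AP-1 sequence. Of the next 8 words, 5 also hold part of AP-1, such as AGTCAT (27.8% against 10.5%). The others were ACCACA (31.3% against 15.3%) and CCACAG (30.8% against 16.8%), of which the first is part of the RUNX sequence, and CAGCTG. The words lowest against the neighbouring windows were AAAAAA (14.9% against 23.6%) and others rich in A and T.

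The windows were richer in GC and poorer in repeats than their surroundings. Mean GC content was 46.6% (SD 6.41), against 43.6% in neighbouring windows and 41.5% in evenly spaced distal windows, and repeats made up 10.8%, 29.97% and 37.0%. CpG dinucleotides were 1.28 per 100 bp, against 5.90 at promoter sites of 5 to 9 constructs. Weighting the neighbouring windows to the GC content of the sites left their AP-1 share at 3.04%. The other sequences and the 6-letter words were not weighted in this way. The part of base composition and repeats in their shares was not tested.

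By annotation 3629 sites (46.1%) lay between genes, 3221 (40.9%) in introns of protein-coding genes, 666 (8.45%) in introns of noncoding genes and 240 (3.05%) in exons of noncoding transcripts. Untranslated regions held 69 (0.876%) and coding exons 54 (0.685%, interval 0.515% to 0.893%), the latter below the 1.99% of distal sites of 1 to 4 constructs (1.92% to 2.07%) and the 1.16% of evenly spaced distal windows. The AP-1 share was 36.1% between genes and 38.0% in introns of protein-coding genes. The median distance to the nearest start site was 34.2 kb, against 36.5 kb at sites of 1 to 4 constructs and 64.0 kb in evenly spaced windows, and 1787 sites (22.7%) lay more than 100 kb away.

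There were 2.89 sites per Mb over the genome. Chromosome 15 had 5.17 per Mb and chromosome 11 had 5.00, where sites of 1 to 4 constructs were dense as well, so that there were 5.16 and 5.70 per 100 of those against 5.54 over the genome. By Mb, chromosome 14 had 1.44 and the X chromosome 0.31. Per 100 sites of 1 to 4 constructs they had 5.42 and 3.93. A stretch of chromosome 5 from 3 to 11 Mb held 105 sites, 13.1 per Mb, and 7774 sites remained without it. Copy number was not measured here. In groups joined over gaps of up to 10 kb, 2229 sites (28.3%) stood with at least 1 other, and 17 groups had 5 or more. The largest group held 10 sites over 41.6 kb on chromosome 11, at Itgb3 and Gm11639, and the next ones 7 sites each, nearest to Dlg1 (25.2 kb), Scgb1a1 (30.4 kb), the Speer4c and 4930572O03Rik region of chromosome 5 (29.0 kb) and Asb7 (25.1 kb).

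Of the 7879 sites, 6092 (77.3%) had the start of a protein-coding transcript within 100 kb and were assigned to the gene of the nearest one. At least 1 site was assigned to 3505 of 21853 protein-coding genes (16.0%). Of these genes, 2146 had 1 site, 161 had 5 or more and 3 had 10 or more. The gene assigned is the nearest one, and which gene a site acts on was not measured.

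Rbpj, the DNA-binding protein through which Notch acts, had the most, 11 sites on chromosome 5. Of these, 5 lay upstream between genes and 6 in introns, from 8.66 to 94.3 kb from a start site, with 5 to 9 constructs each and AP-1 at 3. Lhfpl2, a membrane protein gene of chromosome 13, had 10, of which 7 were intronic and 6 had AP-1. Asap1, an Arf GTPase-activating protein of focal adhesions, had 10 on chromosome 15, of which 7 were intronic and 3 stood in a cluster 88.0 to 94.5 kb from the start. Rbpj, Lhfpl2 and Asap1 also had 46, 32 and 72 sites of 1 to 4 constructs.

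Itgb3, the integrin beta 3 chain, had 9 sites in only 50.4 kb of assigned sequence, the highest density of the 25 genes with the most sites (17.9 per 100 kb), and 9 sites of 1 to 4 constructs. Its sites ran from 1.36 to 33.2 kb from the start and 5 of them had AP-1. Pdlim5, a PDZ and LIM domain protein of actin structures, Nedd9, an adaptor of focal adhesions, and Dlg1, a membrane scaffold, also had 9 each. Scgb1a1, a secreted protein of airway cells, Cyth3, an exchange factor for Arf GTPases, 2010111I01Rik and Frmd4a had 8. The intronic sites assigned to Scgb1a1, and those assigned to Dut below, lie outside these genes, in other protein-coding genes.

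Those with 7 were Jun, a subunit of AP-1 itself, Thbs2, a matrix thrombospondin, Ptgs2, the inducible prostaglandin synthase, Lima1, an actin-bundling protein, Cmklr1, the chemerin receptor, Ank, a pyrophosphate transporter, Dut, the dUTPase, the kinase genes Camk1d and Cdk14, Tiam2, a Rac exchange factor, Fam50b, 4930432M17Rik, Gm15319 and Gm21119. Thbs2 had AP-1 at 5 of its 7 sites and Jun at 2 of 7, all of the latter in introns of noncoding genes, 1.62 to 85.7 kb from the start. Gm15319 and Gm21119 lie together on chromosome 8 at 20 Mb among predicted genes, where only reads that aligned to a single place in the genome were kept. Cdk14 lies in the dense stretch of chromosome 5 and had 102 sites of 1 to 4 constructs.

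**Figure D5:**
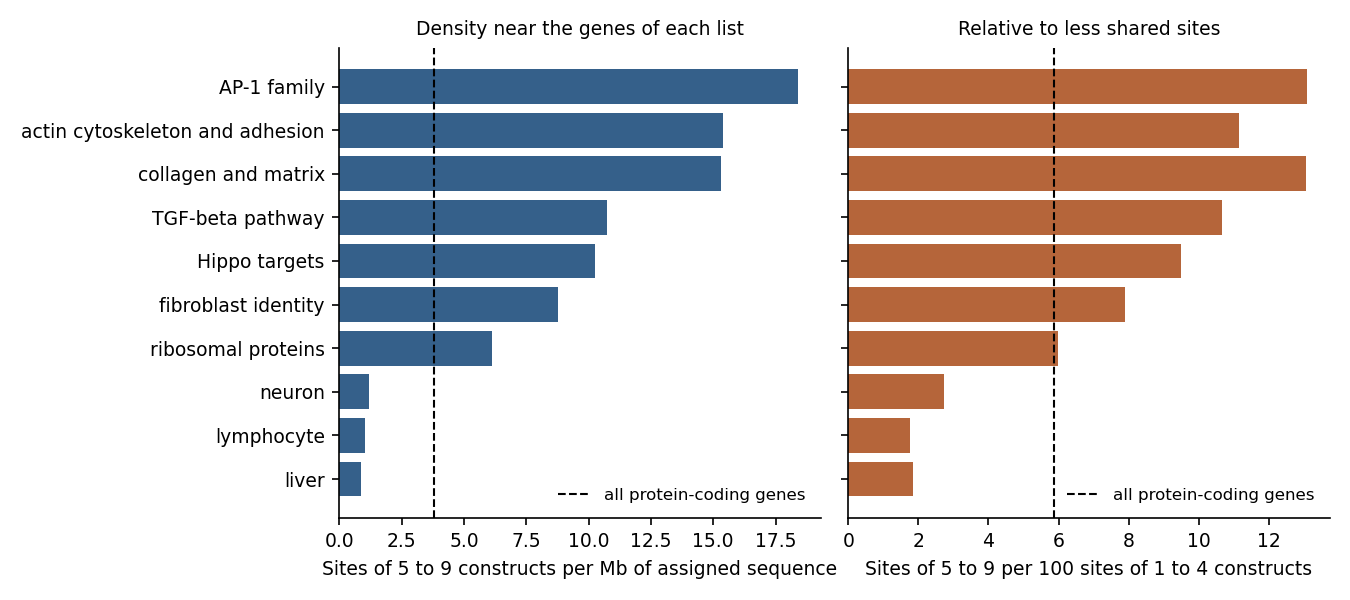
Density of distal sites of 5 to 9 constructs in the sequence assigned to the genes of 10 lists (left, sites per Mb) and their number per 100 distal sites of 1 to 4 constructs (right); the dashed lines give all protein-coding genes, 3.80 per Mb and 5.88 per 100. The AP-1 family, actin, matrix, TGF-beta, Hippo and fibroblast lists lie above both lines, and the neuron, lymphocyte and liver lists below. The ribosomal protein list also lies above both, at 6.12 per Mb and 5.97 per 100, but has 3.28 per Mb and 3.39 per 100 without Rpl3.

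The sites were denser near genes of fibroblast functions than near genes of other cell types. Of 25 collagen and matrix genes, 19 (76.0%) had at least 1 site, against 16.0% of all protein-coding genes, with 15.3 sites per Mb of assigned sequence against 3.80 over all genes. The median assigned sequence per gene was 135.6 kb in this list and 46.4 kb over all genes. The shares of genes with a site do not take this into account. Thbs2 had 7, Col1a2 and Col3a1, which encode fibrillar collagens, 5 each and Dcn, the proteoglycan decorin, 4. Of 24 genes of the actin cytoskeleton and adhesion, 13 had a site (15.4 per Mb), led by Myh9, nonmuscle myosin, with 5, Vcl, vinculin, with 4, and Itga5, an integrin alpha chain, with 3.

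Of 23 genes of the TGF-beta pathway, 15 had a site (10.7 per Mb), and the most were at Tgfbr3, the co-receptor betaglycan (6), Tgif1 and Ltbp1 (4 each) and Ltbp2 (3). Of 16 targets and members of the Hippo pathway, 9 had one (10.2 per Mb), with Tead1 at 5, Ankrd1 at 3 and F3 and Ccn1 at 2 each. Of 22 fibroblast identity genes, 12 had one (8.78 per Mb), with Cd44 and Runx1 at 5, Twist2 at 4 and Ddr2 at 3. The rest of this list had none, among them Pdgfra, Prrx1, Snai2 and Fap.

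Of 13 genes of the AP-1 family, 5 had a site and 8 had none (18.4 sites per Mb). Jun carried 7 of the 14 sites, and without it the density was 11.2 per Mb. With their leading genes Thbs2 and Myh9 left out as well, the matrix and actin lists had 14.1 and 13.5 per Mb. The genes with sites were Jun with 7, Fosl2 with 3, Fos with 2, and Mafk and Atf3 with 1 each. For comparison with the 16.0% of all genes, of 23 neuronal genes 2 had a site, Nefl with 3 and Gria1 with 2 (1.17 per Mb), of 21 liver genes Apob with 1, and of 20 lymphocyte genes Ptprc with 1. Of 25 ribosomal protein genes, which all cells use, 3 had a site, Rpl3 with 2 and Rpl11 and Rpl14 with 1 (6.12 per Mb, and 3.28 without Rpl3). The median assigned sequence per gene was 150.9 kb in the neuronal list, 38.6 kb for liver, 25.6 kb for lymphocytes and 14.8 kb for ribosomal proteins.

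The less shared sites followed the same lists to a smaller degree. Over all genes there were 5.88 sites of 5 to 9 constructs per 100 distal sites of 1 to 4. The ratio was 13.1 in both the matrix and the AP-1 family lists (11.7 without Thbs2 and 8.54 without Jun). It was 11.2 for actin and adhesion, 10.7 for TGF-beta, 9.50 for Hippo and 7.89 for fibroblast identity. It was 5.97 for ribosomal proteins, 2.72 for neurons, 1.85 for liver and 1.75 for lymphocytes, the last 3 from 5, 1 and 1 sites. The lists are short and no test was made on them.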

How the data were processed

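Peaks of HA-tagged transcription factors in NIH-3T3 cells were analysed from 28 lists of 24 constructs. The input sample was not used here. The authors aligned 37-nucleotide read pairs to mm10 with STAR 2.5.3a, kept unique alignments on the autosomes, X and Y, removed duplicates with Picard and called peaks per sample with MACS2 2.1.1.20160309, and they dropped those in the blacklist or in input peaks; the submitters' processing notes also name deepTools 2.4.2. The deposited files give each peak's chromosome and its 2 ends, with no score or depth. All peaks lie within the chromosome lengths of GRCm38, whose NCBI sequence and GENCODE vM21 annotation were used. Coordinates count from 1.

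The deepest overlap of a site is the middle of its longest stretch covered by the most constructs. Windows of 200 bp were searched on both strands, and soft-masked letters counted as repeats. Site classes were compared over constructs with at least 50 windows in both (20 for sites of 10 or more constructs) by a two-sided paired permutation test of sign flips, with 100000 draws (exact below 10 constructs), adjusted over 9 tests by the Benjamini-Hochberg method, with a threshold of 0.05. Constructs were weighted equally. Intervals are 95% Clopper-Pearson intervals. The p-values measure agreement among constructs and not replicate error, which exists for 4 constructs.

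The members, motifs and gene lists were chosen with earlier results of these data known. Named by rule were all constructs, the 25 genes with the most sites, the leading 4 genes of each list with a site, the 10 most frequent combinations, the 10 leading words and the printed sites. An item that this rule names is not reported here. The words lowest against the neighbouring windows, the largest groups, chromosomes, pairs and fibroblast identity genes without a site were picked once their values were known. Scripts were tested on simulated data. Python 3.11.15, NumPy 2.4.6, SciPy 1.17.1 and Matplotlib 3.10.9 were used.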

Additional observations from a re-analysis of the deposited data

How the results depend on the processing

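No paired analysis was possible because same-numbered lists of different constructs share only a number, so no replicate block was fitted. The pairing in the permutation tests is of site classes within a construct. Of 225 alternatives, 211 kept the direction and the side of the threshold, or a value close to the main one. With peaks of at least 300 bp there were 3633 sites in place of 7879 and their AP-1 share was 35.4%. The AP-1 share was 21.7% in windows of 100 bp and 26.6% in windows about the site midpoint. Genes with a site numbered 2283 when counted by gene body and 5 kb before the start. The own consensus difference from sites of 1 to 4 constructs lost its call over whole peaks (-3.94, adjusted permutation p = 0.117) and with each site counted once (-5.26, adjusted exact permutation p = 0.0563). With each site counted once the GC difference from sites of 1 to 4 constructs was -0.10, the log10 distance difference 0.0293 and the AP-1 difference from sites of 10 or more -5.81. With peaks of at least 300 bp the log10 distance difference was 0.0497 and the GC difference from sites of 10 or more 0.0030. Leaving out 1 duplicate list at a time gave GC differences from sites of 10 or more of -0.45 to 0.071 and from sites of 1 to 4 of 1.31 to 1.69. The causes were not tested. AP-1 against sites of 1 to 4 and against promoter sites, repeats, and GC against promoter sites kept their calls in all 21 alternatives each (highest adjusted permutation p = 0.0352). Their sizes moved: AP-1 against promoter sites, 15.9 points, was 9.18 with distal set at over 5 kb and 9.41 in windows of 100 bp. AP-1 against sites of 1 to 4 ran from 6.12 in those windows to 17.99 over whole peaks. Unknown depth limits every count of constructs at a site: a construct without a peak was not shown to be absent.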
